A study of Mus musculus with 24 samples.

Results

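The 9 genes described here are the tumour suppressor Trp53, its negative regulator Mdm2, the p53 target genes Cdkn1a, Ccng1, Trp53inp1, Bax and Fas, and the cell cycle inhibitor loci Cdkn2a and Cdkn2b, chosen by symbol from a table of 56205 genes. All 9 were among the 17913 genes that passed the filter on low counts. Livers of C57BL/6J mice, aged 8 to 10 weeks at the start per the study's methods, were compared after 20 weeks on a high fat diet (12 libraries) or a control diet (12 libraries). The label also abbreviates the diet as FFD. Its composition is not given in the labels. Poly(A) RNA came from whole liver, no transgene or drug was given, and both sexes were used with 6 mice per diet and sex. The labels give no sex for any single library and do not state that each library is a separate mouse, so the p-values measure the spread between libraries.

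p53 is a transcription factor that is kept low by the ubiquitin ligase Mdm2 and is stabilised when DNA is damaged or a cell is otherwise stressed. It then binds a repeated 10-base element near its target genes, whose products stop the cell cycle or open the way to apoptosis. Its best known target is Cdkn1a, which encodes p21, an inhibitor of cyclin-dependent kinases. Cdkn2a and Cdkn2b encode further inhibitors of these kinases (p16INK4a, p15INK4b) and, with p21, are used as markers of senescence, a lasting arrest in which cells stay metabolically active and secrete cytokines and proteases. Hepatocytes with p21 and other senescence markers are known from fatty and fibrotic livers.

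The promoter sequences below show where the p53 consensus lies in the 250 bases before the start sites of these genes. RefSeq start sites (build GRCm38.p6, the mm10 assembly) gave 10 windows for 8 of the 9 genes, and the 250 bases before each start were searched for the p53 consensus element, which reads the same on both strands. Capitals mark the matched bases. In Cdkn1a, Ccng1 and Bax they mark the 20-base double element with at most 1 mismatch and a spacer of at most 1 base, which was found in 0.14% of 32851 promoter windows. The printed stretches are given 5′ to 3′ on the strand of the gene.
Cdkn1a (chr17:29090908-29090967, plus strand): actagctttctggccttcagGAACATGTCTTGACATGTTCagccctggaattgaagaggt
Ccng1 (chr11:40755442-40755501, minus strand): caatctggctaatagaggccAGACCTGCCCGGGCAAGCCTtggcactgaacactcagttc
Bax (chr7:45467070-45467130, minus strand): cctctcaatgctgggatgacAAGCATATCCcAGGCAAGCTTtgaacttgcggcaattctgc

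In the windows of Mdm2 and Trp53 only a single 10-base element without mismatch was found, and it is in capitals below. Such a single element was present in 7.13% of all windows and in 5 of the 10 windows of these genes. Those windows belong to 5 of the 8 genes with a window.
Mdm2 (chr10:117710915-117710964, minus strand): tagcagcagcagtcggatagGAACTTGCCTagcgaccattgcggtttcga
Trp53 (chr11:69580264-69580313, plus strand): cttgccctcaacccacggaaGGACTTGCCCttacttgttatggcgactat

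The Cdkn1a element ran from position -51 to -32 before the upstream of its RefSeq start sites and lay 2831 bases before the downstream one. The Ccng1 element ran from -195 to -176 and the Bax element from -212 to -192. Cdkn2a, Cdkn2b and Fas held no such element in their windows. Sequence outside the windows, such as introns, was not searched for any of the genes. A match describes the sequence only, since binding was not measured.

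Sequencing depth was similar in both diets. Libraries held 16490817 to 21213070 counts on the high fat diet and 14468418 to 22112552 on the control diet, so that 3 counts corresponded to 0.148 and 0.175 CPM (counts scaled to a common library total). TMM scaling factors, which correct for differences in RNA composition, were 0.994 to 1.34 on the high fat diet and 0.679 to 1.01 on the control diet, with the extremes in high fat diet replicate 9 and control replicate 10. Libraries also fell into sets by Xist, a non-coding RNA of the inactive X chromosome: replicates 1 to 6 of both diets had above 1000 counts and replicates 7 to 12 had at most 1000. Ddx3y, a gene of the Y chromosome, had 0 counts in each of the former and 448 to 1016 in each of the latter. Hepatocyte markers were present in all libraries, with no defining marker at 0.

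Cdkn1a and Bax were higher on the high fat diet, Trp53 itself passed the p-value but not the fold threshold, and Mdm2 was at nearly the same level on the TMM scale. To be called, a gene needed a log2 fold change beyond 0.5 and an adjusted p no higher than 0.01 in edgeR's quasi-likelihood test. By this rule 2 of the 9 genes were called higher, beside 13.2% of all genes tested, and 0 were called lower, beside 4.99%. In DESeq2 the counts were also 2 and 0, and the edgeR test gave 5 of the 9 an unadjusted p below 0.05, beside 47.8% of all genes. Their median log2 fold change was 0.35, beside -0.03 for all genes. Scaling by library totals alone moved the median of all genes to 0.26, so the changes below are relative to the TMM scale. Whole liver was measured, so fewer cells of a type and less RNA per cell cannot be told apart.

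Trp53 (ENSMUSG00000059552, chr11:69580359-69591873, plus strand) had a lowest, median and highest level of 23.7, 27.4 and 41.0 CPM on the high fat diet. On the control diet these values were 19.6, 22.3 and 25.1 CPM. The groups overlapped, with 9 of 12 high fat diet libraries above the highest control. Means were 29.3 ± 5.26 and 22.3 ± 1.60 CPM (SD, n = 12 each), a log2 fold change of 0.39 (SE 0.08, edgeR adjusted p = 0.000403). The change passed the p-value but not the fold threshold, and the permutation test of mean log2 CPM gave p = 2e-05 (two-sided, 100000 resamples, smallest possible 1e-05).

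Mdm2 (ENSMUSG00000020184, chr10:117688875-117710758, minus strand) encodes the ligase that marks p53 for degradation and is itself a p53 target. Its levels of 16.6 to 22.2 CPM on the high fat diet lay over the control range of 17.5 to 21.8 CPM. Means of 20.6 ± 1.93 and 20.2 ± 1.44 CPM (SD, n = 12 each) gave a log2 fold change of 0.03 with a 95% interval of -0.09 to 0.15 (edgeR adjusted p = 0.701). This was the narrowest interval of the 9 genes. With library totals its mean log2 difference was 0.31 (permutation p = 0.00166), near the median of 0.26 that all genes then had.

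Cdkn1a (ENSMUSG00000023067, chr17:29090976-29100727, plus strand) changed most. Its lowest, median and highest levels were 8.48, 20.5 and 35.6 CPM on the high fat diet and 0.460, 2.57 and 16.8 CPM on the control diet, from 152 to 685 and from 7 to 287 counts. Control replicate 5 was the only control above the lowest high fat diet library, and the next highest control was at 7.07 CPM. Means were 20.3 ± 8.04 and 4.45 ± 4.48 CPM (SD, n = 12 each), a 4.56-fold difference. The log2 fold change was 2.18 (SE 0.39, edgeR adjusted p = 9.21e-05), with a permutation p of 3e-05. Without control replicate 5 it was 2.60. The spread relative to the mean was larger in control libraries (coefficient of variation 101%) than on the high fat diet (39.6%). The antisense gene AC167363.2, which shares 1046 bases with Cdkn1a, held at most 5 counts in any library.

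Ccng1 (ENSMUSG00000020326, chr11:40748552-40755311, minus strand) encodes cyclin G1, which acts back on p53 through Mdm2. High fat diet libraries held 23.2 to 49.9 CPM of it, control libraries 22.8 to 44.7 CPM. The ranges overlapped almost fully, although 11 of 12 high fat diet libraries lay above the control median. Means of 39.7 ± 7.48 and 31.9 ± 6.11 CPM (SD, n = 12 each) gave a log2 fold change of 0.32 (SE 0.11, edgeR adjusted p = 0.0262), which was not called.

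Trp53inp1 (ENSMUSG00000028211, chr4:11156431-11174379, plus strand) encodes a stress-induced nuclear protein that cooperates with p53. It was at 38.2 ± 7.41 CPM on the high fat diet and at 42.6 ± 15.6 CPM on the control diet (SD, n = 12 each). The log2 fold change of -0.16 (SE 0.16, edgeR adjusted p = 0.458) was not called, and its sign turned with library totals (0.09) and within the libraries with at most 1000 Xist counts (0.05). Control libraries spanned 20.5 to 75.3 CPM and enclosed all high fat diet libraries.

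**Figure D1:**
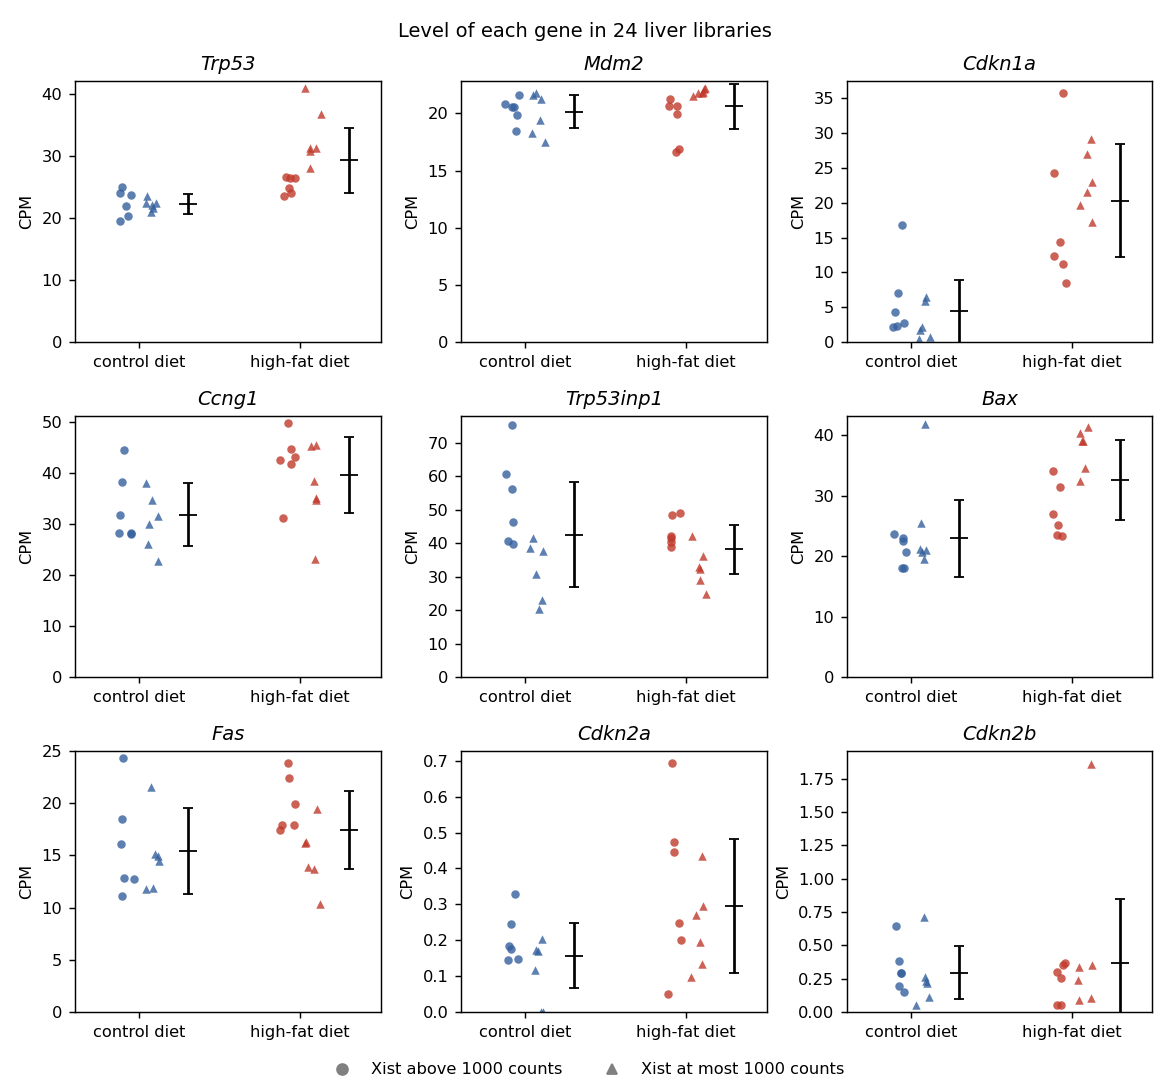
Level of each of the 9 genes in CPM (TMM-scaled) on the y axis in 12 control diet and 12 high fat diet liver libraries; circles are libraries with Xist above 1000 counts, triangles those with at most 1000, and black bars are the mean and SD of 12, with the lower end left out where it passes 0. Cdkn1a reached 8.48 to 35.6 CPM on the high fat diet and 0.460 to 16.8 CPM on the control diet, whereas the groups of Mdm2 lay over each other.

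The genes that act in apoptosis moved by less than Cdkn1a. Bax (ENSMUSG00000003873, chr7:45461697-45466898, minus strand) encodes the pore-forming member of the BCL2 family that opens the outer mitochondrial membrane. Its lowest, median and highest levels were 23.4, 33.2 and 41.4 CPM on the high fat diet and 18.0, 21.1 and 42.0 CPM on the control diet. Control replicate 10, the library with the lowest scaling factor, had the highest level of all, while 9 of the 12 controls lay below the lowest high fat diet library. The means of 32.6 ± 6.65 and 23.0 ± 6.35 CPM (SD, n = 12 each) gave a log2 fold change of 0.51 (SE 0.13, edgeR adjusted p = 0.00235), with a permutation p of 0.00122. This was just over the fold threshold of 0.5, and the call was lost in 11 of the 24 fits that left out 1 library. The lowest of these values was 0.47, without high fat diet replicate 10. Bax shares 915 bases on the same strand with the predicted gene Gm45808, which held up to 424 counts in a library, so the split of reads between them is uncertain.

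Fas (ENSMUSG00000024778, chr19:34290666-34327772, plus strand) encodes a death receptor of the cell surface. High fat diet libraries spanned 10.4 to 23.8 CPM, control libraries 11.1 to 24.3 CPM. The means of 17.4 ± 3.76 and 15.5 ± 4.12 CPM (SD, n = 12 each) differed by a log2 fold change of 0.18 (95% interval -0.10 to 0.45, edgeR adjusted p = 0.313), and the groups overlapped fully.

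The classical senescence locus had few counts. Cdkn2a (ENSMUSG00000044303, chr4:89274471-89294653, minus strand) gives rise to p16INK4a and, from another first exon, p19ARF, which inhibits Mdm2. The gene-level counts merge both transcripts. High fat diet libraries had 1 to 13 counts of it and control libraries 0 to 6, with 0 in control replicates 7 and 12. The levels of 0.295 ± 0.186 and 0.158 ± 0.0914 CPM (SD, n = 12 each) gave a log2 fold change of 0.87 (SE 0.41, edgeR adjusted p = 0.0950), which was not called. With library totals it was 1.12 (edgeR adjusted p = 0.0303), also not called.

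Cdkn2b (ENSMUSG00000073802, chr4:89306299-89311039, minus strand), which encodes p15INK4b, had 1 to 44 counts on the high fat diet and 1 to 14 on the control diet. High fat diet replicate 9 held the 44 counts (1.86 CPM), far above the group's median of 5.5 counts. The levels of 0.365 ± 0.486 and 0.297 ± 0.199 CPM (SD, n = 12 each) gave a log2 fold change of 0.35 (SE 0.47, edgeR adjusted p = 0.586), and without that library the value turned to -0.32. In the same library the summed level of 7 cholangiocyte markers (bile duct epithelium) was also the highest of all, at 890 CPM. Such sums mostly follow Spp1, also a macrophage marker, which averaged 268 CPM on the high fat diet. No other tested marker of that list averaged above 10.4 CPM there. All tested markers of the list were nevertheless highest in high fat diet replicate 9. Spp1 reached 729 CPM in it, Epcam 58.2, Krt19 48.1 and Krt7 29.4 CPM. The group means of the last 3 were 10.4, 7.22 and 4.64 CPM. The part of these markers in the Cdkn2b value was not tested.

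Per kilobase of exon, the order of levels differed between the diets by exchanges of neighbours, Cdkn1a with Mdm2 and Trp53 with Trp53inp1. On the high fat diet it ran from Bax (20.7 CPM per kb) over Ccng1 (11.3), Fas (8.46), Trp53 (7.25), Trp53inp1 (5.90) and Cdkn1a (5.71) to Mdm2 (4.05). Cdkn2b (0.263) and Cdkn2a (0.252) came last. The ranges of mean ± SD of neighbours in this order overlapped, except between Bax and Ccng1 and between Mdm2 and Cdkn2b. On the control diet Cdkn1a (1.25 CPM per kb) stood below Mdm2 (3.97), with ranges that did not overlap, and Trp53 (5.52) stood below Trp53inp1 (6.58), with ranges that did.

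The diet effects were also computed within each library set. Among the 12 libraries with Xist above 1000 counts, 0 of the 9 genes were called higher or lower (background 2.91% higher and 0.896% lower, with 3.48% of genes higher without overlap). Cdkn1a was at 17.7 ± 10.3 and 5.94 ± 5.65 CPM there (SD, n = 6 each), a log2 fold change of 1.60 (edgeR adjusted p = 0.0346), and Bax had 0.39 (edgeR adjusted p = 0.0316). An exact permutation test of 6 against 6 libraries gave p = 0.0152 for Cdkn1a and p = 0.00649 for Bax.

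Among the 12 libraries with at most 1000 Xist counts, Trp53, Cdkn1a and Bax were called higher, 3 of 9 genes beside 14.3% of all genes, and 0 were lower beside 7.89%. Cdkn1a was at 22.9 ± 4.48 and 2.96 ± 2.63 CPM (SD, n = 6 each), a log2 fold change of 2.95 (edgeR adjusted p = 0.000222). Trp53 was at 33.2 ± 4.75 and 22.2 ± 0.898 CPM, a log2 fold change of 0.60 (edgeR adjusted p = 0.000361), and Bax had 0.62 (edgeR adjusted p = 0.00919). Trp53 and Cdkn1a were higher without overlap in this set, as were 12.6% of all genes, and both reached p = 0.00216, the smallest that an exact permutation test of 6 against 6 allows. Over all 24 libraries, 0 of the 9 genes were higher or lower without overlap, beside 1.48% of all genes higher and 0.402% lower.

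The difference between the sets was tested as an interaction of diet and set in edgeR. It passed an adjusted p of 0.05 for Trp53 alone of the 9 genes (difference in log2 fold change 0.41, SE 0.12, adjusted p = 0.0352), beside 10.2% of all genes. For Cdkn1a the difference of 1.34 (SE 0.70, adjusted p = 0.251) did not pass. With library totals in place of TMM, Mdm2 and Bax passed as well (differences 0.54 and 0.61, edgeR adjusted p = 0.0147 and 0.0280).

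Within the control diet, 1 of the 9 genes differed between the sets at an edgeR adjusted p of 0.05, beside 7.23% of all genes: Trp53inp1 was lower in libraries with at most 1000 Xist counts (log2 difference -0.71, adjusted p = 0.0403). Within the high fat diet 4 did, beside 22.4% of all genes. In the libraries with at most 1000 Xist counts, Trp53 (0.40, adjusted p = 0.00561) and Bax (0.48, adjusted p = 0.00423) were higher, and Trp53inp1 (-0.39, adjusted p = 0.0177) and Fas (-0.40, adjusted p = 0.0369) were lower.

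**Figure D2:**
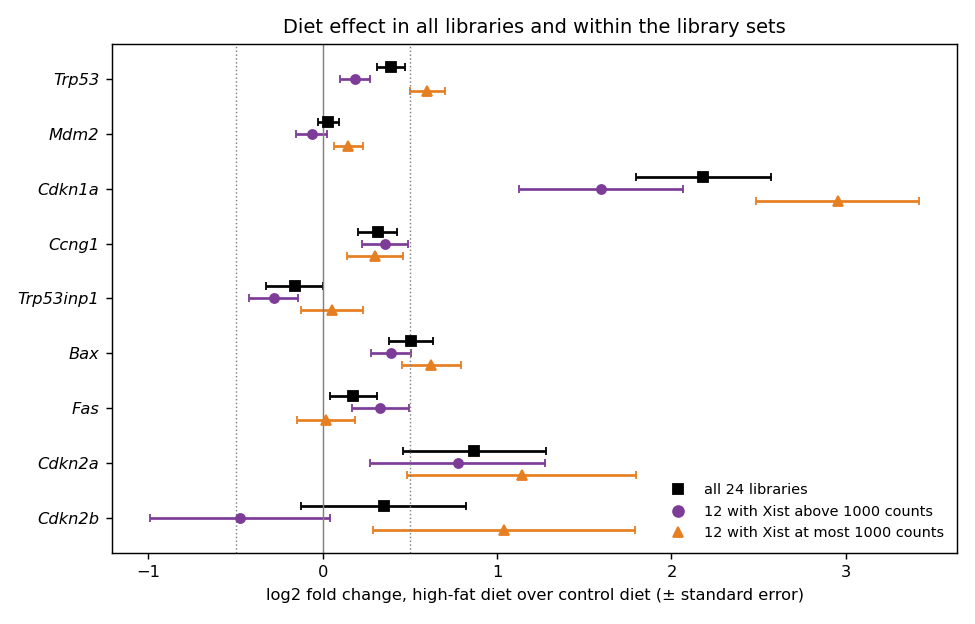
Log2 fold change of each gene on the x axis (high fat diet over control diet, edgeR, bars are the standard error) in all 24 libraries (squares), in the 12 with Xist above 1000 counts (circles) and in the 12 with at most 1000 (triangles); dotted lines mark the fold threshold of 0.5. Cdkn1a lay at 2.18, 1.60 and 2.95 and Trp53 at 0.39, 0.18 and 0.60, while Mdm2 stayed between -0.06 and 0.15.

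Beyond diet and library set, the 9 genes did not vary together in a way that passed correction. Pearson's r and Spearman's rho of log2(CPM + 1) were computed for 36 pairs over 24 libraries after the mean of each diet and set was removed, and 0 pairs had an adjusted permutation p of at most 0.05. The lowest p belonged to Trp53 and Trp53inp1 (r = -0.54, permutation p = 0.006, adjusted p = 0.126; rho = -0.57, permutation p = 0.00536, adjusted p = 0.120). After high fat diet replicates 9 and 10, the 2 most extreme in Trp53, were set aside, r was -0.53. The highest r was that of Trp53 and Cdkn2b (r = 0.60, permutation p = 0.0221, adjusted p = 0.126; rho = 0.45, permutation p = 0.0318, adjusted p = 0.239). It fell to 0.36 without the same libraries, so its size depended in part on them.

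**Figure D3:**
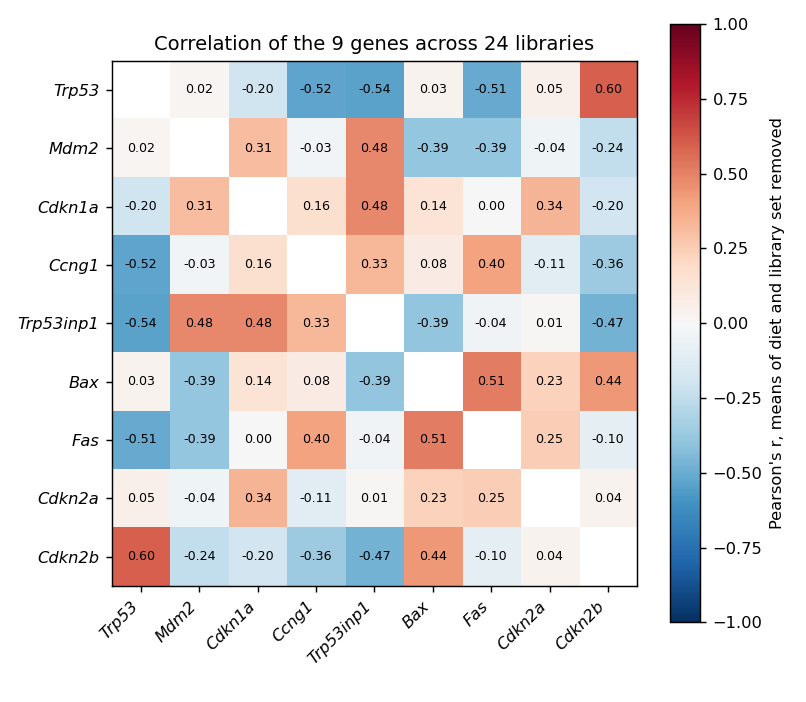
Pearson's r of log2(CPM + 1) for each pair of the 9 genes over 24 libraries after removal of the means of diet and library set, with rows and columns for genes and colour and number for r. The value for Trp53 and Trp53inp1 was -0.54, and 0 of 36 pairs passed correction.

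Among 13917 genes with a mean of at least 10 counts, those most like Cdkn1a over the 24 libraries by the same measure were Dusp8 (r = 0.89, rho = 0.86), Dusp1 (r = 0.85, rho = 0.84), Entpd1 (r = 0.84, rho = 0.77), Zbtb16 (r = 0.82, rho = 0.84) and Grap (r = 0.81, rho = 0.80). These values describe the genes with the highest r and carry no test. Dusp8 and Dusp1 encode phosphatases that inactivate MAP kinases, and Entpd1 encodes the ectonucleotidase CD39. Their diet effects differed in sign: the log2 fold change was 1.53 for Dusp8 and 0.93 for Entpd1, both called higher, and -0.53 for Dusp1 (edgeR adjusted p = 0.0490, not called).

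Other p53 target genes were higher more often than lower. Of 30 tested, 12 were called higher, beside 13.2% of all genes, and 0 lower, beside 4.99%. Their median log2 fold change was 0.30. The 4 with the largest changes at a mean of at least 10 counts were Psrc1, a spindle protein (0.944 ± 0.432 and 0.131 ± 0.138 CPM, log2 fold change 2.77), Ak1, an adenylate kinase (2.74), Phlda3, an inhibitor of Akt (8.63 ± 3.36 and 2.43 ± 0.878 CPM, 1.82), and Eda2r, a receptor of the TNF family (1.81). In Phlda3, 11 of 12 high fat diet libraries lay above the highest control. The others called were Tnfrsf10b, Dram1, Gtse1, Gdf15, Plk2, Apaf1, Btg2 and Gadd45a, with log2 fold changes of 0.65 to 2.69. The well known apoptosis target Bbc3 (Puma) had -0.13 (edgeR adjusted p = 0.471); it and the 8 genes before it were named after their values were seen. Within the sets, 4 were called higher at Xist above 1000 counts, beside 2.91% of all genes, and 9 at 1000 or below, beside 14.3%. Of 23 of these genes with a promoter window, 5 held the 10-base element and 1, Polk, the 20-base one.

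The regulators of p53 were mixed, with counts near the shares over all genes of 13.2% called higher and 4.99% called lower. Of 13 tested, 2 were called higher, the DNA damage kinases Chek1 (log2 fold change 1.30) and Chek2 (0.89), and 1 lower, the deacetylase Sirt1 (-0.57). Their median was -0.17, which turned to 0.11 with library totals. With that scaling 0 of the 13 were called lower, beside 226 of 17913 genes. Chek1 averaged 0.958 ± 0.369 CPM on the high fat diet and 0.381 ± 0.232 CPM on the control diet, so its level was low in both. Trp63 and Trp73, the relatives of Trp53, did not pass the filter on low counts.

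Cell cycle genes were called in 1 direction only. The inhibitors act on the G1 and S phase list, whereas the mitosis list holds genes of mitosis and proliferation. All 12 mitosis genes were called higher (median log2 fold change 2.29), among them Ccnb1 (2.43), the mitotic kinase Plk1 (2.36), the proliferation marker Mki67 (2.36) and the topoisomerase Top2a (2.35). Top2a was at 2.61 to 17.3 CPM on the high fat diet and at 0.263 to 2.16 CPM on the control diet, without overlap. Of 14 genes of G1 and S phase, 5 were called higher and 0 lower, led by Ccna2 (1.76), E2f2 (1.49), the replication helicase subunit Mcm2 (1.29) and E2f1 (0.92), with a median of 0.17. Of 8 other kinase inhibitors and retinoblastoma family genes, Cdkn3 (1.99), a phosphatase that peaks in dividing cells, and Rbl1 (0.88) were called higher and 0 lower (median 0.10). Over all genes tested, 13.2% were called higher and 4.99% lower. Among the libraries with Xist above 1000 counts 1 mitosis gene was called higher, with a list median of 1.76. Among the others 11 were, with a median of 2.69. The shares of all genes called higher in these sets were 2.91% and 14.3%. High fat diet replicate 3, the library with the highest Cdkn1a level, also had the highest summed level of the mitosis genes, 94.0 CPM beside a group median of 36.4 CPM. Without it all 12 were still called, with a median of 2.08. In control replicate 5, the control with the highest Cdkn1a level, the mitosis sum was 10.8 CPM, beside a control median of 10.7 CPM.

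The apoptosis lists are set beside 13.2% of all genes called higher and 4.99% called lower. Of 13 BCL2 family genes other than Bax, 3 were called higher and 0 lower (median log2 fold change 0.37). These were Bcl2a1b (2.49), an inhibitor of apoptosis expressed in leukocytes, Bok (1.01), a relative of Bax, and Bcl2 (3.46 ± 1.06 and 1.72 ± 0.678 CPM), the founding inhibitor. Bcl2a1b is one of several near-identical copies, so the assignment of its reads is uncertain. Of 10 partners of Fas, 0 were called higher and 1 lower, the caspase inhibitor Xiap (-0.65), with a median of -0.11. With library totals 0 of the 10 were called, beside 226 of 17913 genes called lower, and the median turned to 0.17.

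Secreted factors that senescent cells release, but which macrophages and stellate cells also make, were higher in 14 of 19 and lower in 1 (median log2 fold change 1.33). The largest changes were in the macrophage elastase Mmp12 (32.9 ± 11.2 and 2.01 ± 3.18 CPM, 3.98), the protease inhibitor Timp1 (3.62), the monocyte attractant Ccl2 (3.15) and the collagenase Mmp13 (3.04). Vegfa, the endothelial growth factor, was lower in its list (-0.56), and Il6 did not pass the filter on low counts. With library totals 0 of the 19 were called lower, beside 226 of 17913 genes. The shares of all genes tested were 13.2% called higher and 4.99% called lower. Of 10 further senescence marker genes, 3 were called higher and 0 lower (median 0.35): Uhrf1 (3.90 ± 1.72 and 0.582 ± 0.355 CPM), which maintains DNA methylation in dividing cells, the chromatin protein Hmgb2 (log2 fold change 0.89) and the lamin Lmnb1 (0.51). Lmnb1 and Hmgb2 are known to fall in senescent cells in culture.

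**Figure D4:**
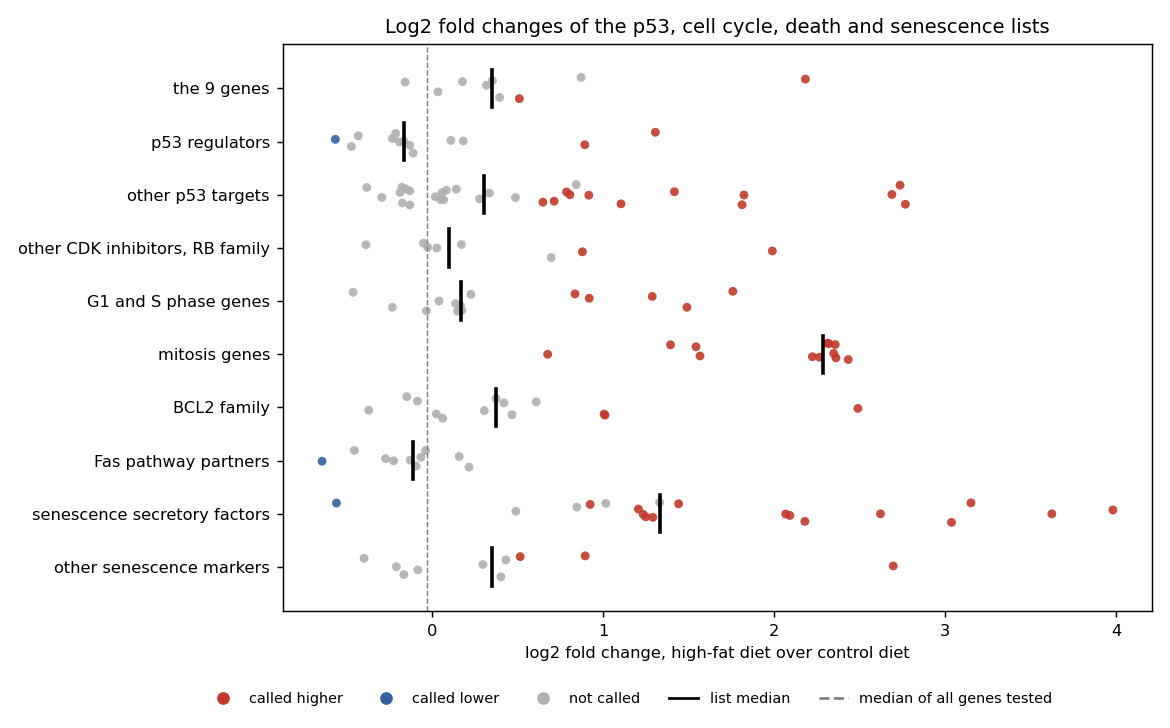
Log2 fold change (x axis, high fat diet over control diet, edgeR) of the 9 genes and of the genes of 9 related lists, 1 point per gene and 1 list per row, red for called higher, blue for called lower and grey for not called; black lines are list medians and the dashed line is the median of all genes (-0.03). All 12 mitosis genes and 14 of 19 secretory factors were called higher, beside 13.2% of all genes. The median of the p53 regulators was -0.17.

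Markers of other cell types moved with the same comparison, in which 13.2% of all genes were called higher and 4.99% lower. The summed level of 8 markers of monocyte-derived macrophages was 318 to 1310 CPM on the high fat diet and 92.2 to 305 CPM on the control diet, and 8 of 8 were called higher. Of 11 stellate cell markers 7 were called higher (427 to 1055 CPM against 192 to 515 CPM), and of 6 cholangiocyte markers tested 5 were (31.6 to 890 CPM against 27.3 to 132 CPM). Of 9 hepatocyte markers 6 were called lower (39516 to 95292 CPM against 86085 to 136540 CPM), but only 2 with library totals. Within Xist above 1000 counts 1 hepatocyte marker was called lower and 0 cholangiocyte and 4 macrophage markers higher, and within the other set 8, 4 and 8. Of all genes, 2.91% were called higher and 0.896% lower in the former set, and 14.3% and 7.89% in the other. Resident macrophage markers were split, with 2 of 7 higher and 1 lower (199.8 to 872 CPM against 121 to 523 CPM), and endothelial markers likewise, with 1 of 8 higher and 1 lower (169.6 to 378 CPM against 155 to 357 CPM). Of T cell markers 0 of 8 (3.91 to 11.9 CPM against 3.26 to 12.6 CPM) and of B cell markers 0 of 6 (16.9 to 67.3 CPM against 22.7 to 96.0 CPM) were called. No marker of any list was at 0 in every library, and Spp1 is shared by the secretory, macrophage and cholangiocyte lists. In high fat diet replicate 3, the highest in Cdkn1a, the monocyte-derived macrophage, stellate cell and cholangiocyte sums (318, 427 and 31.6 CPM) were the lowest of that diet. Its hepatocyte and endothelial sums (95292 and 378 CPM) were the highest of that diet. Control replicate 5, the control highest in Cdkn1a, had the highest control sums of both (136540 and 357 CPM). The part of the marker shifts in the changes of Cdkn1a, Bax and the lists was not tested. In the libraries with at most 1000 Xist counts the macrophage sum on the high fat diet was 665 to 1310 CPM, above the 318 to 543 CPM of the other set. The sums of stellate cell markers (728 to 1055 against 427 to 668 CPM) and cholangiocyte markers (258 to 890 against 31.6 to 176 CPM) were also higher there without overlap, and that of hepatocyte markers was lower (39516 to 49969 against 71119 to 95292 CPM). The part of these sums in the set differences of Trp53, Bax, Trp53inp1 and Fas was not tested.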

How the data were processed

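Poly(A) RNA of whole liver was sequenced by the authors in 24 libraries. They deposited raw gene counts, 1 column per library; the labels name bcl2fastq, STAR 2.7.3a and mm10. The study's methods name a stranded TruSeq mRNA kit and quantification with PISCES, described there against a human reference. The strand setting of the mouse counts and the treatment of duplicates are not given in the sources used here. Of 56205 gene IDs, 51745 had a symbol in GENCODE M21, and the remaining 4460 held 0.0723% of counts.

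Counts were tested in R 4.3.3 with edgeR 4.0.16 (quasi-likelihood, TMM, genes detected by 1 count or more in 12 or more libraries, Benjamini-Hochberg over 17913 genes). CPM values used TMM-scaled totals, and 95% intervals used 22 residual degrees of freedom. Counts of replicates differed beyond sampling noise (lowest chi-square per degree of freedom 8.44). On simulated counts for this comparison (17751 genes), 76% of 200 genes with a log2 change of 1 were recovered and 1 unchanged gene was called. The single-gene permutation tests used log2(CPM + 1). Named genes are the 9, plus up to 4 called genes per list with the largest changes and a mean of at least 10 counts. The 9 genes and all lists were chosen with earlier results of these data known. Alternatives were DESeq2 1.42.0, limma-voom 3.58.1, surrogate variables (sva 3.50.0), other scalings and filters, library sets, a replicate block and left-out libraries.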

Additional observations from a re-analysis of the deposited data

Results flagged for a closer look

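The diet effect on Trp53 differed between the library sets. The log2 fold change was 0.60 in libraries with at most 1000 Xist counts and 0.18 in those above, a difference of 0.41 (SE 0.12, edgeR interaction test, adjusted p = 0.0352). Of all genes, 10.2% passed an adjusted p of 0.05 in this test. Trp53 alone of the genes described here passed it, which is near that share. The result therefore does not set these genes apart from the rest. With library totals the Trp53 difference was 0.77 (adjusted p = 0.00280) and in DESeq2 0.43 (adjusted p = 0.0131). Mdm2 and Bax also passed with library totals (differences 0.54 and 0.61, edgeR adjusted p = 0.0147 and 0.0280). The sets follow Xist counts and are not groups of the labels. Ddx3y had 0 counts in the libraries above 1000 Xist counts and 448 to 1016 in the others.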

How the results depend on the processing

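Scaling by library totals alone moved Trp53 to 0.70 and Ccng1 to 0.59, both then called, and turned Trp53inp1 to 0.094 (log2 fold changes). It gave 3827 genes higher, 226 lower and 4 of the 9 higher. It also turned the set difference of Ccng1 to 0.25 and of Fas to 0.041, and the mean log2 difference of Trp53inp1 to 0.19, and it brought that of Fas to 0.45 (permutation p = 0.00082). Within Xist above 1000 counts, Cdkn1a was 1.60 and Bax 0.39, both no longer called, Mdm2 was -0.064 and Cdkn2b -0.47, with 525 genes higher, 162 lower and 0 of the 9. Within at most 1000 counts Trp53 was 0.60 and Trp53inp1 0.053, with 1430 genes lower. Bax fell short of the fold threshold with the set as covariate (0.49) and with 1 surrogate variable (0.50, just under the threshold), leaving 1 of the 9 called. Of all 17913 genes tested, these fits called 2418 and 2476 higher. Cdkn2b was -0.030 in limma-voom, -0.014 with a pseudocount of 0.1 in the permutation test, and -0.17 without high fat diet replicate 9 and control replicate 10. That last fit, chosen after seeing the data, gave 2119 genes higher and 782 lower, 2 of the 9, 12 other p53 targets, 12 mitosis genes, 15 secretory factors and 5 BCL2 family genes higher (3 with all libraries), and 2 p53 regulators lower (1 with all libraries). A minimum of 10 counts in every library gave 1226 genes and 1 of the 9 higher, since it also removed Cdkn1a. An adjusted p of 0.05 with no fold threshold gave 3709 genes higher, 3388 lower and 4 of the 9 higher. A log2 threshold of 1 gave 1690 genes higher, 216 lower and 1 of the 9 higher. Leaving out 1 library each gave Trp53 0.34 to 0.42, Cdkn1a 2.07 to 2.60, Bax 0.47 to 0.62 and Cdkn2b -0.32 to 0.54. In these fits 1 to 2 of the 9 were called higher, beside 2137 to 2464 of all genes. The cause of these shifts was not tested.

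With the replicate number as a block, Cdkn1a was 2.53, Bax 0.51 and Cdkn2b -0.065. In that fit 2 of the 9 were called higher, beside 2063 of 17913 genes. Deviations of same-numbered libraries correlated from -0.0935 to 0.541, and 2 of 12 high fat diet libraries correlated best with their own number, so the number was treated as a name and not as a pairing. Cdkn2a and Cdkn2b had a mean of 4.42 and 6.54 counts per library, and recovery at such counts was not simulated separately.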
